A study of Mus musculus with 6 samples.

Results

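The insulin-like growth factor (IGF) family described here comprised 10 genes of the deposited gene table of 34745 genes: the ligands Igf1 and Igf2, the receptors Igf1r and Igf2r, and the binding proteins Igfbp2, Igfbp3, Igfbp4, Igfbp5, Igfbp6 and Igfbp7. The rule took the rows with these gene names and used no measured value, although the family was picked with earlier results of these data known. 9 of them passed the filter on low counts and were tested, and Igfbp2 did not. Bulk RNA-seq of left ventricle compared wild-type (WT) male C57BL/6 mice, an inbred strain labelled 8 weeks old, after transverse aortic constriction (TAC) or a sham operation. TAC narrows the aortic arch with a ligature and so raises the pressure load on the left ventricle, the sham operation left the ligature out, and tissue was taken 6 weeks later. 3 libraries were labelled TAC and 3 were labelled Sham. The labels do not tie each library to its own mouse, and the p-values therefore measure the spread between these libraries, which may be technical.

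IGF-I and IGF-II are small secreted peptides related to insulin, and in the heart IGF-I is made largely by fibroblasts and macrophages. Both peptides activate the IGF-I receptor, a tyrosine kinase that signals through PI3K, AKT and ERK and favours growth and survival of cardiac myocytes. The IGF-II receptor takes up IGF-II for breakdown and also sorts enzymes that carry mannose 6-phosphate to lysosomes. Secreted binding proteins hold the ligands in the matrix or in fluid, lengthen their life and limit or aid their access to the receptor.

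The libraries held 17399510 to 28401399 counts over genes, and 12.0% to 16.0% of them fell on mitochondrially encoded genes. Nppa, the gene of atrial natriuretic peptide and a marker of the overloaded ventricle, was higher in the Sham-labelled libraries (log2 difference, labelled TAC minus labelled Sham, -3.70, SE 0.45, edgeR adjusted p = 0.0222). Acta1, which encodes the alpha-actin of skeletal muscle and is active in the fetal heart, was 9.41-fold higher in the same libraries (adjusted p = 0.0448). All 6 genes of the hypertrophy and fetal list had estimates higher in the Sham-labelled libraries. Of them 4 passed, against 1.11% of all genes tested in that direction, Xirp2 and Ankrd1 being the others. This goes against the labels, so groups are named as TAC-labelled and Sham-labelled. Each direction below is that of the labels, and every one would turn if the labels were exchanged. The second principal component of the gene counts (21.0% of the variance) set library TAC 3 apart from the others. All 10 ventricular myocyte markers were tested and had a summed FPKM (a level corrected for transcript length and library depth) of 11188 to 18477. The atrial markers summed to 0.279 to 30.9, without a split by group.

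Igf1, Igfbp6 and Igfbp7 had a higher level in every Sham-labelled library than in any TAC-labelled one, by 1.83-fold, 2.93-fold and 2.61-fold, and none of the 3 passed the threshold. In edgeR's quasi-likelihood test across all genes, called at an adjusted p under 0.05, 0 of the 9 tested members passed, against 1.43% of the 15198 genes tested. These were 217 genes, 168 higher in the Sham-labelled libraries (1.11%) and 49 in the TAC-labelled (0.322%), or 296 and 42 with library totals not scaled by TMM and 712 and 483 with DESeq2. At an unadjusted p under 0.05 the members counted 3 of 9, all higher in the Sham-labelled libraries, against 11.4% of all genes tested in that direction and 9.56% in the other. The same 3 were the tested members whose groups did not overlap, against 27.0% of all genes tested, 13.6% in that direction and 13.4% in the other. 7 of the 9 had an estimate higher in the Sham-labelled libraries. The median log2 difference was -0.30 over the 9 and 0.0075 over all genes tested. DESeq2 called Igf1, Igfbp6 and Igfbp7 on the same counts, with 8.02% of genes called. The same 3 were called with library totals not scaled by TMM (2.22% of genes) and without the filter on low counts (1.96%). limma called Igfbp6 and Igfbp7 on log2(FPKM + 0.1) (1.88%) and Igfbp6 on log2(FPKM + 1) (1.85%). With median-of-ratios scaling edgeR called 0 members (1.47% of genes). A library left out in turn gave 0 calls among the members, except Igfbp6 without Sham 3, with 0.00%, 0.0645% and 0.142% of genes called without TAC 1, TAC 2 and TAC 3, and 2.57%, 0.155% and 0.258% without Sham 1, Sham 2 and Sham 3.

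**Figure D1:**
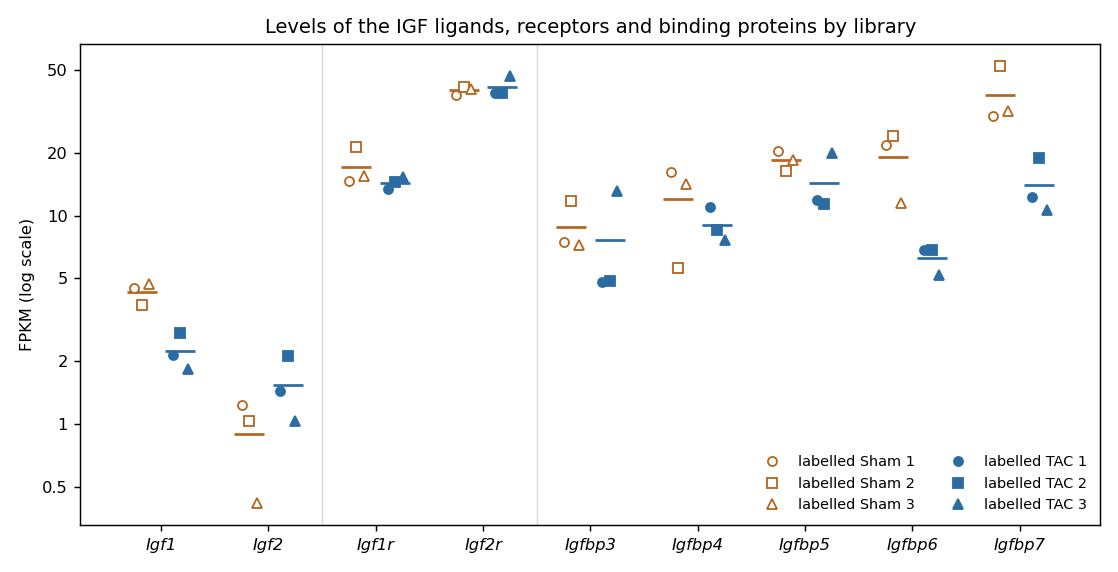
Deposited FPKM (vertical axis, log scale) of the 9 tested members in each library; open brown symbols are Sham-labelled libraries, filled blue symbols are TAC-labelled libraries, and lines are means of 3. Igf1, Igfbp6 and Igfbp7 do not overlap between the groups, and library TAC 3 is the highest of its group for Igfbp3, Igfbp5, Igf1r and Igf2r.

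The promoter windows of Igf1, Igfbp6 and Igfbp7 are shown because these members had the smallest p-values. All 10 members matched the RefSeq promoter table (GRCm38.p6), which gives 250 bases before and 50 after each start site. The windows are chr10:87860861-87861160 on the + strand for Igf1, chr15:102143936-102144235 on the + strand for Igfbp6 and chr5:77407996-77408295 on the - strand for Igfbp7, each written 5′ to 3′. The Igf1 window lies inside the span of the Igf1 gene row, which starts at 87858265, and use of its start site here was not tested. The Igfbp6 window ends before the Igfbp6 gene row, which starts at 102144362, and use of that start site was not tested either. Capitals mark matches, on either strand, to the GC box GGGCGG, the TATA box TATAAA, the CCAAT box CCAAT, the AP-1 site TGANTCA and the MCAT site CATTCC of muscle genes.
Igf1: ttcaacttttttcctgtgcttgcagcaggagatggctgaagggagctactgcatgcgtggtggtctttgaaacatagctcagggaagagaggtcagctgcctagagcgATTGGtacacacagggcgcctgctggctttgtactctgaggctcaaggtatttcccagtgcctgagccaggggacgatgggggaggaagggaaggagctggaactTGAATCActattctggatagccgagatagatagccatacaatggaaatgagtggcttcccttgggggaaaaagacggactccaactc
Igfbp6: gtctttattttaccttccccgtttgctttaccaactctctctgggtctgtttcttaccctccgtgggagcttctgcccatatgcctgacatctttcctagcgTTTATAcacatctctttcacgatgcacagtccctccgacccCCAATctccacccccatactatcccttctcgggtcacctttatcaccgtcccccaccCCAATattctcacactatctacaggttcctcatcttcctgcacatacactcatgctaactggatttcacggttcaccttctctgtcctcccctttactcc
Igfbp7: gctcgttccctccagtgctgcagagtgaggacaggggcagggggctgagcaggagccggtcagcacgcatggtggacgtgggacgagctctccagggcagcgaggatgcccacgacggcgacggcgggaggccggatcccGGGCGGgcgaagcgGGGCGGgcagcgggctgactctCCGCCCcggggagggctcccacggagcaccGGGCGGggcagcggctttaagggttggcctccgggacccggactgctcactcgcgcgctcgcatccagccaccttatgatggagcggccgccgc
In these windows no 2 matches overlapped. Igf1 held a CCAAT box and an AP-1 match. Igfbp6 held 2 CCAAT boxes and, at position -148 from the start site, a TATA box match on the strand opposite to that written. Igfbp7 held 4 GC boxes and none of the other motifs. Of 32851 promoter windows in the table, 35.7% held a GC box, 13.6% a TATA box, 37.4% a CCAAT box, 7.81% an AP-1 match and 14.7% an MCAT match. Igfbp7 had 33 CpG dinucleotides, Igf1 had 6 and Igfbp6 had 8, against a median of 7 over all windows. No motif among those searched was shared by the 3 windows.

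The fibroblast, activated fibroblast, and macrophage and monocyte markers had summed levels that did not overlap between the groups. Other cell types are given in the next paragraph, and which cells supplied the RNAs of Igf1, Igfbp6 and Igfbp7 was not tested. The 10 fibroblast markers summed to 401 to 516 FPKM in the TAC-labelled libraries and 654 to 780.0 in the Sham-labelled ones, and 0 passed in edgeR's test while 7 of 10 had an unadjusted p under 0.05, all higher in the Sham-labelled libraries (11.4% of all genes tested). The 8 markers of activated fibroblasts summed to 22.6 to 32.3 and 215 to 421 FPKM. Of these, 7 passed in edgeR's test, all higher in the Sham-labelled libraries, where 1.11% of all genes tested passed in that direction. The 12 macrophage and monocyte markers summed to 60.2 to 101 and 129 to 155 FPKM, and 0 passed in edgeR's test while 6 of 11 tested had an unadjusted p under 0.05 in the same direction. None of the markers in these 3 lists was at 0 in all libraries. Their part in the differences of Igf1, Igfbp6 and Igfbp7 was not tested, and in bulk tissue fewer cells of a type and less RNA per cell cannot be told apart.

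The 10 ventricular myocyte markers all had estimates in the other direction, 9 of them without overlap (13.4% of all genes tested in that direction), and 0 passed in edgeR's test (7 at an unadjusted p under 0.05, against 9.56% of all genes in that direction). Endothelial markers did not part the groups, with sums of 217 to 233 FPKM in the TAC-labelled libraries and 199 to 247 in the Sham-labelled ones. Pericyte and smooth muscle markers summed to 775 to 891 and 971 to 1389 FPKM. This gap in the sums came from Des, which myocytes also express (352 to 469.8 and 611 to 995 FPKM). Without Des the sums overlapped at 374 to 423 and 344 to 407 FPKM. Of these 10 markers 0 passed in edgeR's test, and 7 had an unadjusted p under 0.05 (20.9% of all genes tested). Of the 7, 5 were higher in the Sham-labelled libraries and 2 in the TAC-labelled ones. The 5 endocardial markers summed to 10.5 to 13.6 and 14.6 to 16.2 FPKM, and without Npr3 to overlapping sums of 4.33 to 7.75 and 5.01 to 6.66 FPKM. The 7 mesothelial markers had overlapping sums of 2.48 to 5.19 and 2.17 to 5.65 FPKM. Adipocyte markers reached at most 1.98 FPKM. Erythroid markers summed to 180 to 382 and 177 to 234 FPKM. Neutrophil markers, with Mpo at 0 throughout, summed to 15.8 FPKM in TAC 1 and to at most 3.04 elsewhere.

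Igf1, which encodes IGF-I (ENSMUSG00000020053, chromosome 10, 87858265 to 87937042 on GRCm38), had 2.15, 2.74 and 1.84 FPKM in libraries TAC 1, 2 and 3. In libraries Sham 1, 2 and 3 it had 4.48, 3.72 and 4.70 FPKM. Every Sham-labelled library lay above every TAC-labelled library, with means of 4.30 ± 0.515 and 2.25 ± 0.455 FPKM (SD, n = 3 each). The log2 difference was -0.87 (SE 0.17, edgeR adjusted p = 0.0532; 0.000435 to 0.159 over the alternatives), from 480 to 1388 counts per library.

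Igf2, the gene of the fetal growth factor IGF-II (chromosome 7, 142650766 to 142666816), stood at 1.45, 2.12 and 1.04 FPKM in libraries TAC 1, 2 and 3. It stood at 1.24, 1.04 and 0.419 FPKM in libraries Sham 1, 2 and 3, the last from 96 counts. The groups overlapped, and the estimate lay in the direction opposite to that of Igf1 (log2 difference 0.82, SE 0.41, edgeR adjusted p = 0.303). It was 0.48 without library Sham 3 and 0.52 without TAC 2. Because FPKM is per length, the ligands can be set side by side. The ratio of Igf1 to Igf2 FPKM was 1.49, 1.29 and 1.77 in the TAC-labelled libraries and 3.61, 3.59 and 11.2 in the Sham-labelled ones. The ratio was thus above 1 in all 6 libraries, and its groups did not overlap.

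H19, a non-coding RNA of the imprinted cluster that also holds Igf2, had 0.916, 1.27 and 1.80 FPKM in libraries TAC 1, 2 and 3 and 0.587, 0.489 and 0.556 in the Sham-labelled ones. All 3 TAC-labelled libraries lay above the Sham-labelled ones, at a 2.55-fold difference that did not pass (log2 difference 1.35, SE 0.26, edgeR adjusted p = 0.0528, from 55 to 203 counts per library). In the separate lncRNA table the longest H19 transcript row had 72, 129 and 394 counts in the TAC-labelled libraries and 56, 61 and 21 in the Sham-labelled ones. For TAC 3 this exceeds the count of the gene row, so the tables did not count the locus alike. Igf2os, the antisense RNA of Igf2, was at or near 0 FPKM in the gene table, with 0.026 as its highest level.

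Igf1r, the gene of the signalling receptor (chromosome 7, 67952859 to 68226780), had 13.4, 14.5 and 15.3 FPKM in libraries TAC 1, 2 and 3 and 14.6, 21.3 and 15.5 in the Sham-labelled ones. The groups overlapped, and Sham 2 was the highest library. The log2 difference was -0.20 (SE 0.17, edgeR adjusted p = 0.545) and 0.02 without library Sham 2. Igf2r, the gene of the clearing and sorting receptor (chromosome 17, 12682406 to 12769664), had 38.6, 38.8 and 46.6 FPKM in the TAC-labelled libraries and 37.7, 41.1 and 40.5 in the Sham-labelled ones. It was the most abundant member by mean FPKM, with a log2 difference of 0.12 (SE 0.11, edgeR adjusted p = 0.596) and overlapping groups. The ratio of Igf2r to Igf1r FPKM was 2.68 to 3.05 in the TAC-labelled libraries and 1.92 to 2.62 in the Sham-labelled ones.

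Airn, the antisense RNA that starts within Igf2r and takes part in its imprinting, had 5.06, 5.51 and 6.75 FPKM in the TAC-labelled libraries and 3.96, 5.47 and 4.86 in the Sham-labelled ones. Its groups overlapped (log2 difference 0.34, SE 0.16, edgeR adjusted p = 0.286). The sources used here do not state whether the counting used strand, and without strand the reads of Igf2r and Airn cannot be told apart where they overlap. The same holds for Igf2 and Igf2os.

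Igfbp7 encodes a secreted relative of the classical binding proteins with a lower affinity for the ligands (ENSMUSG00000036256, chromosome 5, 77349240 to 77408041). Its level was 12.3, 18.9 and 10.6 FPKM in libraries TAC 1, 2 and 3 and 29.8, 52.1 and 31.7 in libraries Sham 1, 2 and 3. The groups did not overlap, and Sham 2 was the highest library. The means were 37.9 ± 12.4 FPKM in the Sham-labelled libraries and 13.9 ± 4.38 in the TAC-labelled ones (SD, n = 3 each), with a log2 difference of -1.38 (SE 0.29, edgeR adjusted p = 0.0643; 0.000221 to 0.172 over the alternatives).

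Igfbp6 encodes a binding protein that prefers IGF-II (ENSMUSG00000023046, chromosome 15, 102144362 to 102149511). It stood at 6.86, 6.81 and 5.18 FPKM in the TAC-labelled libraries and at 21.7, 24.0 and 11.4 in the Sham-labelled ones. Sham 3 lay closest to the TAC-labelled libraries, and the groups did not overlap. The log2 difference was the largest of the tested members, -1.55 (SE 0.30, edgeR adjusted p = 0.0544; 7.19e-05 to 0.150 over the alternatives). It was -1.82 without library Sham 3, where it passed (adjusted p = 0.0293).

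Igfbp3, Igfbp4 and Igfbp5 had overlapping groups. Igfbp3, whose product is the main carrier of IGFs in blood (chromosome 11, 7206086 to 7213923), had 4.82, 4.86 and 13.1 FPKM in libraries TAC 1, 2 and 3 and 7.48, 11.8 and 7.25 in the Sham-labelled ones. TAC 3 was the highest library of all, while TAC 1 and TAC 2 were the lowest. The log2 difference of Igfbp3 was -0.17 (SE 0.40, edgeR adjusted p = 0.843), -0.80 without library TAC 3 (adjusted p = 0.172), and positive without TAC 1, TAC 2 or Sham 2, so its direction was not settled by these libraries.

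Igfbp5 encodes a binding protein that attaches to extracellular matrix (chromosome 1, 72857932 to 72874884). It had 11.9, 11.3 and 19.9 FPKM in the TAC-labelled libraries and 20.4, 16.4 and 18.5 in the Sham-labelled ones. Again TAC 3 stood apart from TAC 1 and TAC 2 and within the range of the Sham-labelled libraries. The log2 difference was -0.30 (SE 0.21, edgeR adjusted p = 0.458) and -0.59 without TAC 3, where it did not pass either.

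Igfbp4, whose product is cleaved by the protease pappalysin (chromosome 11, 99041244 to 99054392), had 10.99, 8.48 and 7.67 FPKM in the TAC-labelled libraries and 16.1, 5.60 and 14.2 in the Sham-labelled ones. Here Sham 2 was the lowest of the 6 libraries and Sham 1 the highest. The log2 difference was -0.33 (SE 0.35, edgeR adjusted p = 0.641), -0.66 without Sham 2 and -0.03 without Sham 1.

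Igfbp2, a binding protein gene that neighbours Igfbp5 (chromosome 1, 72824503 to 72852474), was close to the limit of detection. It had 0 counts in each TAC-labelled library and 6, 1 and 4 counts in libraries Sham 1, 2 and 3. Set against the 3 counts that a total of 0 allows over the TAC-labelled libraries, the 11 counts of the Sham-labelled libraries were at least 3.25-fold higher per scaled total. This bound covers counting error in the TAC-labelled libraries only, and takes the 11 counts as exact.

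**Figure D2:**
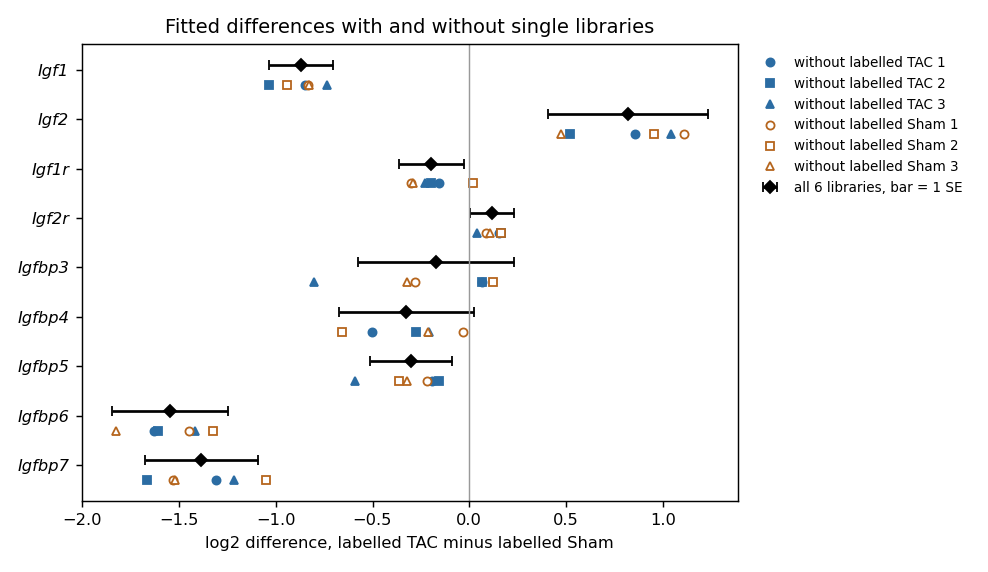
Fitted log2 differences (horizontal axis, labelled TAC minus labelled Sham) of the 9 tested members; black diamonds with bars of 1 SE use all 6 libraries, and small symbols leave out 1 library each. Igf1 (-1.03 to -0.74), Igfbp6 (-1.82 to -1.32) and Igfbp7 (-1.66 to -1.05) stay below 0 in these 6 fits, and Igfbp3 lies on both sides of it.

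By mean FPKM over the 6 libraries the order was Igf2r (40.5), Igfbp7 (25.9), Igfbp5 (16.4), Igf1r (15.7), Igfbp6 (12.7), Igfbp4 (10.5), Igfbp3 (8.22), Igf1 (3.27), Igf2 (1.22) and Igfbp2 (0.034). From Igf2r down to Igfbp3, each member's range over libraries overlapped that of its neighbour in this order, and so did those of Igf1 and Igf2. Igfbp3 lay above Igf1, and Igf2 above Igfbp2, without overlap. The pooled order held in neither group: by group mean Igfbp7 stood below Igfbp5 and Igf1r, and Igfbp6 below Igfbp4 and Igfbp3, in the TAC-labelled libraries, while Igfbp6 stood above Igfbp5 and Igf1r in the Sham-labelled ones. The FPKM of the 6 binding proteins summed to 46.9, 50.4 and 56.4 in libraries TAC 1, 2 and 3 and to 95.7, 109.9 and 83.1 in the Sham-labelled ones. The sums did not overlap. Among the tested binding proteins, Igfbp6 and Igfbp7 did not overlap between the groups either, while Igfbp3, Igfbp4 and Igfbp5 did.

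The make-up of that sum also varied between libraries. Igfbp7 took 26.3%, 37.5% and 18.8% of it in the TAC-labelled libraries and 31.2%, 47.4% and 38.1% in the Sham-labelled ones, so that the groups overlapped through TAC 2. Igfbp5 took 25.3%, 22.5% and 35.2% in the TAC-labelled libraries against 21.4%, 14.9% and 22.3% in the Sham-labelled ones, where the groups did not overlap. The margin was narrow, between TAC 2 and Sham 3, and the FPKM level of Igfbp5 itself overlapped between the groups. Igfbp5 held the largest share in TAC 3, and Igfbp7 held it in the other 5 libraries. Igfbp6 averaged 12.4% ± 2.89 in the TAC-labelled libraries and 19.4% ± 4.95 in the Sham-labelled ones (SD, n = 3 each). Its groups overlapped, as TAC 1 (14.6%) lay above Sham 3 (13.7%). As shares of summed counts, which are not corrected for length, Igfbp5 led Igfbp7 in both groups, with means of 53.8% against 11.0% in the TAC-labelled libraries and 47.5% against 19.5% in the Sham-labelled ones. These shares are a description, with no test.

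**Figure D3:**
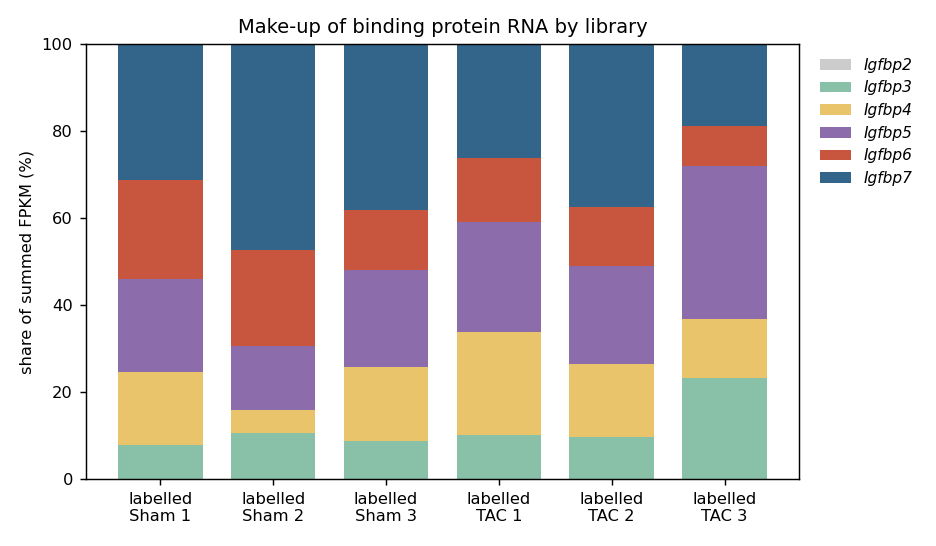
Share of the summed FPKM of the 6 binding proteins (vertical axis, %) taken by each, in each library; Igfbp2 is too low to be seen. Igfbp7 holds 18.8% to 47.4%, with its lowest share in library TAC 3, where Igfbp5 (35.2%) and Igfbp3 (23.2%) are at their highest.

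Non-coding transcripts were also measured at these loci. The lncRNA table held 34 transcript rows that overlapped a member gene by at least 1 base or were named H19, Igf2os or Airn. 21 of them were tested and 0 passed in edgeR's test across that table (0.106% of 16035 transcripts passed), with 2 at an unadjusted p under 0.05, against 12.6% of all transcripts tested. Across that table the groups did not overlap for 20.6% of transcripts. DESeq2 called 1, the longest H19 transcript (adjusted p = 0.0353, with 1.40% of transcripts called). limma called 0 at either pseudocount.

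A transcript row inside Igfbp5 (NONMMUT001471.2, chromosome 1, 72858067 to 72859857) had 1427 counts in library Sham 1 and 1541 in Sham 2. It had 4 counts in Sham 3 and 5, 5 and 6 in libraries TAC 1, 2 and 3. The Igfbp5 gene row, with 2264 to 4626 counts, showed no such break. The transcript reached 34.0% and 33.3% of the gene's count in Sham 1 and Sham 2 and at most 0.221% in the other 4 libraries. It failed the filter on low counts with all 6 libraries and was not tested.

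The row inside Igfbp4 (NONMMUT011946.2, chromosome 11, 99051575 to 99052641) behaved otherwise. Its counts were 830, 683 and 605 in the TAC-labelled libraries and 1311, 918 and 951 in the Sham-labelled ones (log2 difference -0.65, SE 0.26, edgeR adjusted p = 0.379). This was 94.5% of the Igfbp4 gene count in Sham 2 and 57.5% to 65.7% in the other 5 libraries. The low Igfbp4 level of Sham 2 was therefore not matched by an equally low level of the row inside it. The sources used here do not state how reads shared by a gene and a transcript within it were assigned.

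**Figure D4:**
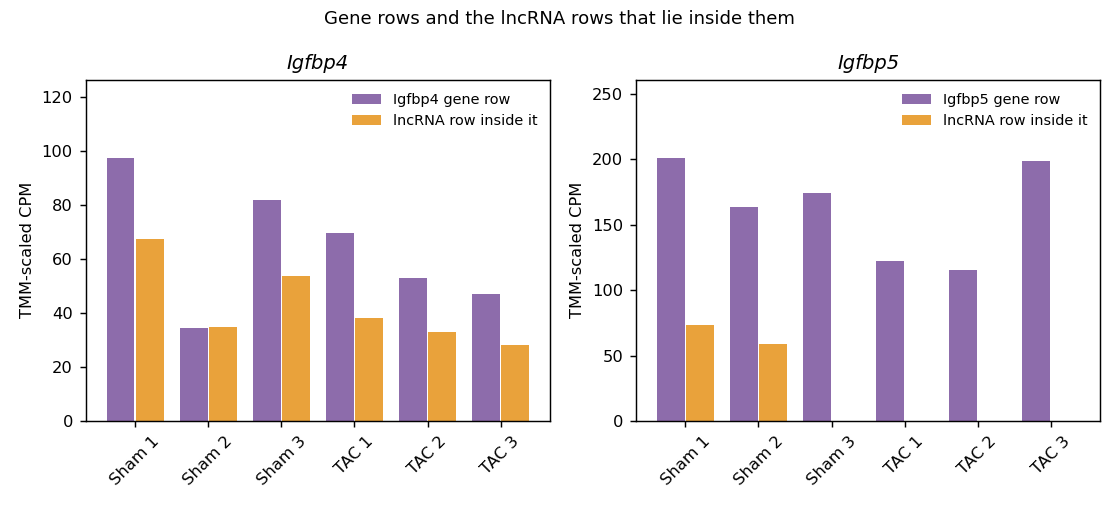
Depth-scaled counts (TMM-scaled CPM, vertical axes) of the Igfbp4 and Igfbp5 gene rows and of the lncRNA row inside each, by library under its label. The Igfbp5 inner row stands at 73.5 and 58.7 CPM in Sham 1 and Sham 2 and below 0.3 CPM elsewhere, and in Sham 2 the Igfbp4 inner row is level with its gene row.

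Proteases and stanniocalcins help set how much ligand the binding proteins release, by cleaving them or by blocking the cleavage. Of 15 tested genes of this kind, 0 passed in edgeR's test over all genes, 11 had an unadjusted p under 0.05 (20.9% of all genes tested), and 10 of these were higher in the Sham-labelled libraries. The median log2 difference was -0.81, against 0.0075 over all genes tested. Mmp2, the gelatinase A gene, had 38.7 ± 11.4 FPKM in the Sham-labelled libraries and 16.3 ± 2.90 in the TAC-labelled ones (SD, n = 3 each; log2 difference -1.20, SE 0.24, edgeR adjusted p = 0.0588). The metalloproteinase genes Adam9 and Mmp19 had log2 differences of -0.81 and -1.02 (adjusted p = 0.107 and 0.112). A pair of genes was named after their values were seen: Pappa, the pappalysin gene, at a log2 difference of -0.96 (adjusted p = 0.119), and Htra1, a serine protease gene, at 0.73 in the other direction (adjusted p = 0.157). DESeq2, which called 8.02% of all genes, called Mmp2, Adam9, Mmp19, Mmp3 and Pappa, each higher in the Sham-labelled libraries. The summed fibroblast markers parted the groups in the same direction (401 to 516 and 654 to 780.0 FPKM), and their part in the protease differences was not tested.

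Downstream of the receptor, 0 of 39 tested genes of signalling to AKT, mTOR and ERK passed in edgeR's test, and 8 had an unadjusted p under 0.05, a share near the 20.9% of all genes tested. Their median log2 difference was 0.02. Shc1, an adaptor of receptor tyrosine kinases, had a log2 difference of -0.42 (SE 0.11, edgeR adjusted p = 0.106) and was called by DESeq2. Irs1, the docking protein of the insulin and IGF-I receptors, stood at 13.6 ± 0.729 FPKM in the TAC-labelled libraries and 10.9 ± 1.28 in the Sham-labelled ones (SD, n = 3 each; edgeR adjusted p = 0.153). Ptpn1, a phosphatase that acts on the insulin receptor, had a log2 difference of -0.42 (adjusted p = 0.175).

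Among 7 tested genes of the growth hormone receptor pathway, which drives Igf1 in liver, 0 passed in edgeR's test and 2 had an unadjusted p under 0.05. These were Stat5b, a transcription factor of the pathway (log2 difference 0.40, adjusted p = 0.0857; called by DESeq2), and Ghr, the receptor itself (0.42, adjusted p = 0.142). Both were higher in every TAC-labelled library than in any Sham-labelled one, the direction opposite to that of Igf1. Over all genes tested, 13.4% did not overlap in that direction and 9.56% had an unadjusted p under 0.05 in it. Socs3, an inhibitor of cytokine signalling, had a log2 difference of -1.16 (adjusted p = 0.320) with overlapping groups.

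Of the family genes outside the 10, 4 were tested and 0 passed in edgeR's test (1 at an unadjusted p under 0.05, 0 by DESeq2). Igfals, the acid-labile subunit that joins Igfbp3 in the circulating complex, had 1.77 ± 0.129 FPKM in the TAC-labelled libraries and 1.17 ± 0.324 in the Sham-labelled ones (SD, n = 3 each; edgeR adjusted p = 0.168). Insr, the insulin receptor gene, had 40.1 ± 7.01 and 35.1 ± 2.08 FPKM (adjusted p = 0.372), a level above that of Igf1r in all 6 libraries. Igf2bp2, which encodes an RNA-binding protein, had a log2 difference of -0.59 (adjusted p = 0.444). Igfbp1, Ins1, Ins2 and Igfn1 were listed at 0 in all 6 libraries.

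None of 11 genes of mannose 6-phosphate sorting, the other task of Igf2r, passed in edgeR's test (1 at an unadjusted p under 0.05, 0 by DESeq2). Vps29, Vps35 and Nagpa had the smallest p-values, with log2 differences of -0.32, -0.18 and -0.32. None of 14 FoxO target genes, which are held down when AKT is active, passed either (0 at an unadjusted p under 0.05, 0 by DESeq2), and their median log2 difference was 0.02. Sesn3, Fbxo32 and Sesn1 had log2 differences of -0.33, -0.36 and 0.19. Of 13 tested imprinted growth genes 0 passed in edgeR's test and 2 had an unadjusted p under 0.05, H19 and Plagl1, the latter a transcription factor gene at 0.394 ± 0.288 FPKM in the TAC-labelled and 0.0966 ± 0.0786 in the Sham-labelled libraries (SD, n = 3 each; edgeR adjusted p = 0.220), with overlapping groups. Mirg followed at -0.91 (adjusted p = 0.327), and DESeq2 called H19.

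**Figure D5:**
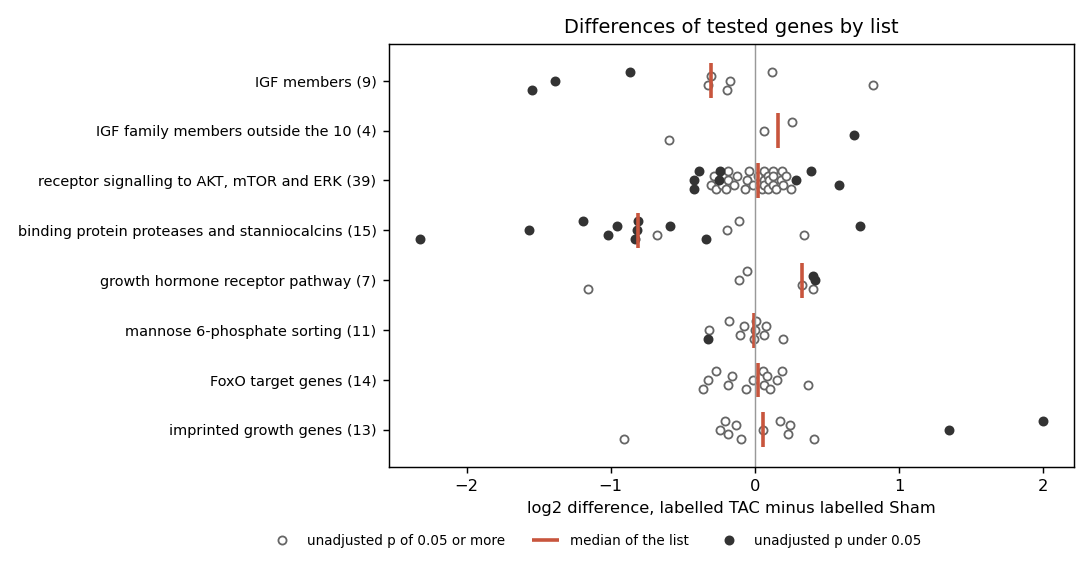
Fitted log2 differences (horizontal axis, labelled TAC minus labelled Sham) of the tested genes of each list, with the number tested in brackets; filled points have an unadjusted p under 0.05 and red lines are medians. The proteases and stanniocalcins have a median of -0.81 and the members of -0.30, while the signalling, sorting, FoxO and imprinted lists have medians between -0.01 and 0.05.

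The genes most like each of the 3 members were found by the root mean square distance of log2 CPM over the 6 libraries, each gene centred on its own mean, among 10065 candidates. Slc25a1, PISD and Rab4b were closest to Igf1, at 0.0816, 0.0837 and 0.109 log2 units, and PISD passed the edgeR test (adjusted p = 0.0394). Lbp, C7 and Srpx2 were closest to Igfbp6, at 0.192, 0.224 and 0.231, and all 3 passed the edgeR test with adjusted p-values of 0.0331 to 0.0396. Adcy7, Fstl1 and Pi16 were closest to Igfbp7, at 0.116, 0.143 and 0.149. The distance counts the difference between the groups as well as the spread within them. Genes picked by it share the member's group difference, so their passing is no separate support for that difference.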

How the data were processed

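The libraries were made from total RNA. Whole-number counts per gene and per lncRNA transcript, and FPKM values, were deposited by the authors for each library, per the file headers. HISAT2 2.0.4 and StringTie 1.3.0, and the build GRCm38 (mm10), are listed in the submitters' processing notes. The sources used here do not state the counting program, its strand setting or the annotation. Counts were tested with the quasi-likelihood test of edgeR 4.0.16 (TMM; filterByExpr, minimum count 10; Benjamini-Hochberg adjustment over all features of a table) in R 4.3.3, with gene totals as library sizes for both tables. The SE is the size of the log2 difference over the root of its F statistic, and FPKM levels are as deposited. Alternatives were DESeq2 1.42.0, limma 3.58.1 on log2(FPKM + 0.1) and log2(FPKM + 1), other scaling, no filter, a replicate block and each library left out. The test was checked on simulated data. Members and lists were chosen with earlier results of these data known. Named were all members and, per list, genes past the threshold or otherwise up to 3 with the smallest p. Likeness was measured among tested genes with a mean FPKM of at least 1. Replicates differed by more than counting noise.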

Additional observations from a re-analysis of the deposited data

How the results depend on the processing

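Of the members, 3 (Igf1, Igfbp6 and Igfbp7) were called with library totals not scaled by TMM, without the filter on low counts and with DESeq2, 2 with limma on log2(FPKM + 0.1), 1 with limma on log2(FPKM + 1) (Igfbp6), and 0 to 1 with a library left out. Over all genes the 217 calls became 338 without TMM, 432 without the filter, 1195 with DESeq2 and 0 to 397 with a library left out (0 without TAC 1, where 2564 genes had an unadjusted p under 0.05). The count of pathway list genes leaves out the members, the cell type markers and the hypertrophy and fetal list. Pathway list genes called, 0 at first, were 1 without TMM and with limma on log2(FPKM + 0.1), and 2 without the filter. They were 8 with DESeq2 and 0 to 2 with a library left out. Over all genes tested, 2.22% were called without TMM and 1.88% with that limma fit. Without the filter 1.96% were called, and with DESeq2 8.02%. With a library left out the share was 0.00% to 2.57%. Locus lncRNAs called were 1 with DESeq2 and 0 to 1 with a library left out, the 1 being the Igfbp5 inner row without Sham 3, its low Sham-labelled library, which is no test of a group difference. The members' median log2 difference ran from -0.59 (without TAC 3) to -0.19 with a library left out. In those fits Igfbp3 ran from -0.80 to 0.12 (0.06 without TAC 1, 0.07 without TAC 2, 0.12 without Sham 2) and Igf1r from -0.30 to 0.021 (without Sham 2); the other 7 tested members kept their sign under all 13 alternatives. By mean FPKM share Igfbp5 (27.7%) was already just above Igfbp7 (27.5%) in the TAC-labelled libraries, while Igfbp7 led in the Sham-labelled ones. With summed counts, not corrected for length, Igfbp5 led in both groups. Igfbp5, Igfbp6 and Igfbp7 then took 53.8%, 2.79% and 11.0% in the TAC-labelled libraries. Their shares were 47.5%, 5.49% and 19.5% in the Sham-labelled ones. Fits with fewer libraries tend to have less power, and the 397 calls came from the fit without Sham 1. The cause of these changes was not tested.

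With the replicate number as a block, 41 genes and 1 member (Igfbp7, edgeR adjusted p = 0.0331) were called, 0 pathway list genes and 0 locus lncRNAs. Same-numbered libraries did not deviate together (correlations of -0.12, -0.13 and -0.09), so the numbers were not taken as pairs.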
